A study of Mus musculus with 3 samples.

Results

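Chemokines are small secreted proteins that guide leukocytes through tissues, and their receptors are G protein-coupled receptors on the cells that respond. They were described here in macrophages of mouse back skin during telogen, the resting phase of the hair follicle cycle. The set was chosen by gene symbol: every gene named as a CC, CXC, CX3C or XC chemokine or receptor, with the platelet chemokines Pf4 and Ppbp, the atypical receptors Ackr1 to Ackr4, and the related receptors Ccrl2 and Cmklr1. It held 63 of the 19752 genes that could be named on the array, 38 ligands and 25 receptors, through 74 probes. A further 8 genes of the same naming had no probe matched to them (Ccl16-ps, Ccl19-ps1, Ccl19-ps2, Ccl19-ps3, Ccl21c, Ccl21d, Ccl27b and Cxcl11) and were not analysed here.

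Skin-resident macrophages of CD1 mice (an outbred strain) were measured at 3 stages of the second telogen, with no treatment or transgene in any group. The stages were early telogen (Te), labelled postnatal day 42 and given as day 44 in the study's text, mid telogen (Tm), day 55, and late telogen (Tl), day 69. Cells were sorted as CD11b+, Gr1- and F4/80+, which are surface proteins of myeloid cells, granulocytes and macrophages respectively, and each array held RNA pooled from 3 littermates. With 1 array per stage there was no replicate of a stage, no test was made, and stage, litter and array cannot be told apart. RNA amounts were small, between 0.05 and 1 ng, and were amplified before labelling. In a sorted population, fewer cells of a type and less RNA per cell cannot be told apart.

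Chemokines bind the receptors of their class, and many receptors accept several ligands. Ligation activates heterotrimeric Gi proteins, integrins and the actin cytoskeleton, while beta-arrestins and receptor kinases switch the receptor off. In skin, keratinocytes, fibroblasts, vessels and macrophages all release chemokines, which set where monocytes, neutrophils, T cells and dendritic cells go. Atypical receptors bind chemokines without this signalling and take them up.

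Levels are given as log2 intensity minus the 75th percentile of the same array, so 0 marks the 75th percentile itself, and only the same probe is compared between arrays. A gene with several probes was read from its brightest. A difference of at least 2-fold (1 on the log2 scale) is called higher or lower. Spots of the same probe on the same array varied with a median SD of 0.126, 0.108 and 0.119 (log2) at Te, Tm and Tl, which gives a spot error of 0.166 for a Tm against Te difference and of 0.174 for Tl against Te. This error covers the spots and not animals, sorting or amplification. Where the scanner software marked a probe as well above background for 1 array of a comparison but not the other, the difference is a bound ("at least"), set against the detection floor of the dimmer array, or against the probe's own dim reading where that exceeded the floor.

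The array files deposited as Tm and Tl are exchanged in the authors' value table. With the columns exchanged, 100% of probes lay within 0.05 of the table's differences from Te, against 3.07% as named. The sources used here do not settle which naming is right. The arrays are called by the names of their scanner files, so each Tm value below may belong to Tl and the reverse. A difference from Te that had the same direction on both later arrays does not rest on that choice. The sorted cells carried macrophage transcripts: all 15 macrophage markers on the array were well above background on every array, and their median change from Te was -0.23 at Tm and -0.42 at Tl. The summed level of the macrophage markers, in units of the 75th percentile, was 1063, 991 and 651 at Te, Tm and Tl. All 15 keratinocyte markers on the array were also well above background on every array. On the Te, Tm and Tl arrays 71.4%, 59.6% and 68.7% of probes were well above background, with 0 saturated spots.

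Promoter sequences are shown for 6 ligands whose values are described below: neighbouring genes that were lower at Tl (Ccl12 and Ccl8), the pair of ligands of the receptor Cxcr3 (Cxcl9 and Cxcl10), and the neutrophil ligands Cxcl1 and Cxcl2, which carry the same motif. Each is the 250 bases before the transcription start in RefSeq, build GRCm38.p6, written 5′ to 3′ on the strand of the gene. Capitals mark matches to TATAAA, to the NF-kB consensus and to the core of the interferon-stimulated response element (GAAA, any 2 bases and GAAA; ISRE core). Windows of 300 bases (250 before and 50 after the start) were searched on both strands, also for TTCNNNGAA.
Ccl12 (chr11:82101595-82101844, + strand): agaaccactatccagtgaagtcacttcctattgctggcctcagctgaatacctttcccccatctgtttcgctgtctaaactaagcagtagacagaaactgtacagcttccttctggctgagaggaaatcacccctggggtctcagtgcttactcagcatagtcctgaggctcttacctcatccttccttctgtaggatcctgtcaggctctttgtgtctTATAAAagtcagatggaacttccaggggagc
Ccl8 (chr11:82114935-82115184, + strand): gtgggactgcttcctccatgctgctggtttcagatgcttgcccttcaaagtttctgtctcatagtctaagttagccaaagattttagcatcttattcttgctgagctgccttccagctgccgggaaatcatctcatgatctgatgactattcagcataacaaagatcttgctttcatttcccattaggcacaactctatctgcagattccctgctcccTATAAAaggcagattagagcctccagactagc
Cxcl9 (chr5:92328080-92328329, - strand): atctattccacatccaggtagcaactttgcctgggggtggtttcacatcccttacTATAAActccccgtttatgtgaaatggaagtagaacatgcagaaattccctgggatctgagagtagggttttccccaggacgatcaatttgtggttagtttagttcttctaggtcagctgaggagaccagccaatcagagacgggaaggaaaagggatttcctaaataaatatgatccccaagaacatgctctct
Cxcl10 (chr5:92348890-92349139, - strand): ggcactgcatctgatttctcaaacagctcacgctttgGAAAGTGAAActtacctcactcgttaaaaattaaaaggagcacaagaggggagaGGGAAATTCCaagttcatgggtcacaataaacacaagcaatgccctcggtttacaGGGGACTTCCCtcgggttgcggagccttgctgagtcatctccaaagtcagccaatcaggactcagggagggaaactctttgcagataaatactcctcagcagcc
Cxcl1 (chr5:90890995-90891244, + strand): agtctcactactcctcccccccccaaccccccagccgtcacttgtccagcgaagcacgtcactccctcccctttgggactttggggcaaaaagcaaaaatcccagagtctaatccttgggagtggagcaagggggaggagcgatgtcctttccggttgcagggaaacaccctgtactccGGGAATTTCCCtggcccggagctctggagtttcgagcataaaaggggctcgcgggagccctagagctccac
Cxcl2 (chr5:90903649-90903898, + strand): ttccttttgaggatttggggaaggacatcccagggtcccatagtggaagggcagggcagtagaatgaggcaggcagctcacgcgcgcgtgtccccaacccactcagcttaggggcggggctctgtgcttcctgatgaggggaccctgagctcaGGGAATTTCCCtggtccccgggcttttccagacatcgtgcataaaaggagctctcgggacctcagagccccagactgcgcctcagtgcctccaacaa
Ccl12 and Ccl8 hold TATAAA starting at -31 and -32, counted from the base before the start as -1. Cxcl10 holds GAAAGTGAAA at -213 and NF-kB matches at -159, -104 and -103, of which the last pair overlap. Cxcl1 and Cxcl2 hold the same GGGAATTTCC at -71 and -97, and the window of the related gene Cxcl3 holds it at -73. In all, 49 members matched a window and 14 did not. The NF-kB consensus stood in 23.6% of the 55 member windows and in 8.46% of all 32851 windows. TATAAA stood in 27.3% of the member windows and 13.6% of all, the ISRE core in 5.45% and 3.44%, and TTCNNNGAA in 7.27% and 8.3%. These are matches of letters and say nothing of whether a factor was bound.

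Much of the system was measurable: 48 of 63 members were well above background at Te, 50 at Tm and 55 at Tl, and 45 were so on all 3 arrays. The 7 members that were undetected, that is not well above background anywhere, were Ccl20, Ccl26, Ccl28, Cxcl17, Cxcl3, Cxcl5 and Cxcr1, 6 ligands and 1 receptor. Ccl20, Ccl28 and Cxcl17 are known as products of epithelia. A further 11 were well above background on 1 or 2 arrays.

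From Te to Tm, 11 members were at least 2-fold higher and 11 at least 2-fold lower of the 53 with a value, 8 of them given by a bound. Over all 15855 genes with a value, 29.2% were higher and 16.9% lower. The members' median change was 0.21, beside 0.22 for all genes. From Te to Tl, 15 members were higher and 14 lower of 54, with 7 bounds, beside 22.3% higher and 21.2% lower of 16196 genes. The median change was 0.25 for the members and 0.15 for all genes. At the 10-fold threshold of the study's methods, 3 members were higher and 0 lower at Tm, beside 1.17% and 0.328% of all genes. At Tl 1 was higher and 0 were lower, beside 0.716% and 0.531%. At 2-fold the shares are near those of the whole array, so that count of changed members does not set the chemokine system apart. Both comparisons share the Te array, so their values are given side by side and not as support for each other.

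**Figure D1:**
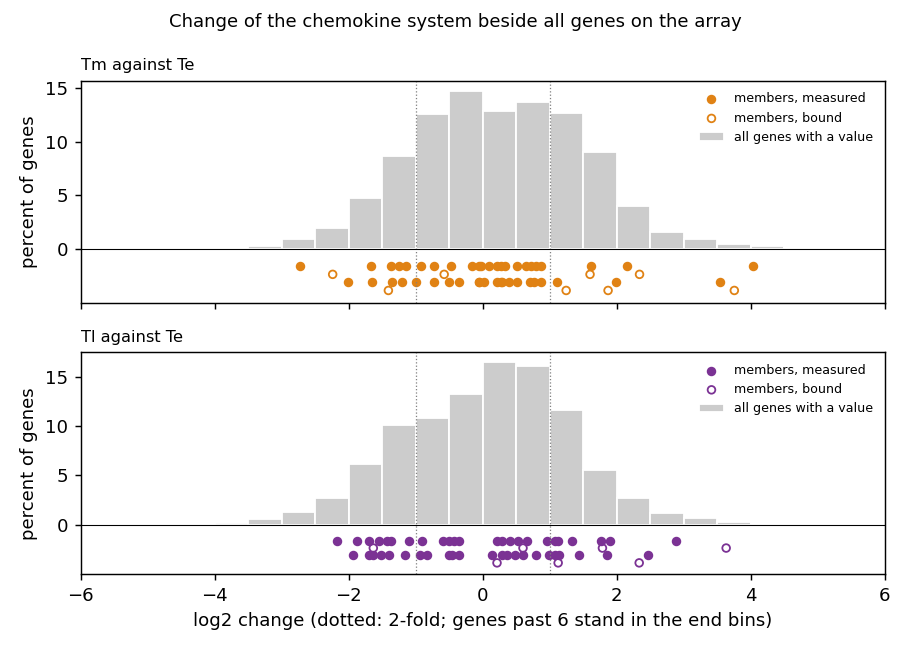
Distribution of log2 changes from Te over all named genes with a value (grey bars, percent of genes) with the chemokine ligands and receptors as points below the axis, filled where measured and open where only a bound is known. The 53 members at Tm and the 54 at Tl lie within the range of the other genes and do not reach its ends, with a median of 0.21 and 0.25.

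The scaling moved these counts. Scaling each array to its median in place of the 75th percentile put 20 members higher and 5 lower at Tm, with 46.1% and 7.87% of all genes, and 23 higher and 8 lower at Tl, with 38.7% and 10.6%. Taking the 75th percentile over probes well above background on all 3 arrays gave 9 and 15 at Tm, with 19.4% and 25.7% of all genes, and 10 and 17 at Tl, with 16.8% and 25.7%. Without any scaling, 30 members were higher and 1 lower at Tl, with 60.2% and 3.80% of all genes. Some members stayed at least 2-fold from Te under the 3 other scalings and under normexp background correction. Among them were Ccl1, Ccl27a, Cxcl14, Cxcl16 and Cxcr2 (higher) and Ccl2, Ccl7, Cxcl9 and Cxcl13 (lower) at Tm. At Tl the 5 higher ones bore the same names, and the 7 lower ones were Ccl2, Ccl5, Ccl8, Ccl19, Cxcl9, Ccr7 and Ccr9. Without any scaling, 6 of these 7 were under 2-fold at Tl, from -0.38 (Ccl8) to -0.78 (Cxcl9), and Ccr9 was at -1.01. The bounds given below hold for the main processing only. Normexp put those of Ccr4 (0.40), Ppbp (0.40), Xcl1 (0.91), Ackr3 (0.98) and Ccr8 (-0.85) under 2-fold at Tm. At Tl it did so for Xcl1 (0.74), Ackr2 (0.30) and Ackr3 (0.18). It put Ccl1 at 2.02 and 1.85.

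Several ligands that recruit monocytes and T cells were lower after Te. Ccl2, the main attractant of Ccr2-bearing monocytes, lay at 2.31, 0.29 and 0.44 on the Te, Tm and Tl arrays. It was 4.04-fold lower at Tm and 3.66-fold lower at Tl. Its probe is spotted repeatedly, and the 10 spots at Te (2.12 to 2.40) did not overlap the 9 at Tm (0.17 to 0.44) or the 9 at Tl (0.35 to 0.62). The spots of an array share 1 RNA pool, so they do not show differences between animals, sorting or amplification. Ccl7, which also binds Ccr2, lay at 1.97, 0.32 and 0.56, and was 3.15-fold and 2.65-fold lower. Ccl12, the mouse ligand of Ccr2 related to Ccl2, lay at 0.56, 0.08 and -0.55. It was 1.39-fold lower at Tm, under the threshold, and 2.15-fold lower at Tl. Ccr2, the receptor of these 3 ligands, stayed under 2-fold and lay at 1.33, 1.26 and 2.12, a change of -0.06 at Tm and 0.80 at Tl. Of 8 fibroblast markers on the array, 0 were higher and 3 lower at Tm, and 1 was higher and 3 lower at Tl, with medians of -0.85 and -0.33. Their summed level was 91.7, 43.2 and 46.9. Dcn, a matrix gene of fibroblasts, changed by -1.88 and -1.06, while Dpt changed by a bound of -0.23 and by 1.87. Of the markers with a value, 1 was above 0 and 6 below at Tm, and 4 were above and 4 below at Tl. Their part in the Ccl2, Ccl7, Ccl12 and Ccl8 values was not tested.

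Ccl8, which in mouse attracts cells through Ccr8, lay at 6.42, 5.93 and 4.88. It was 1.41-fold lower at Tm and 2.91-fold lower at Tl, the latter past the threshold. Its receptor Ccr8, found on T cells and skin-homing cells, lay at -2.64 at Te and -4.15 at Tl, a change of -1.52. It was not well above background at Tm, where the bound was at least 2.65-fold lower. A further Ccr8 probe was dim on all 3 arrays. Ccl1, another ligand of Ccr8 and a product of activated T cells, went the opposite way. It was not well above background at Te and lay at -0.60 at Tm and -0.73 at Tl, at least 13.5-fold and at least 12.4-fold higher.

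Ccl5, made by T cells and macrophages and a ligand of Ccr1 and Ccr3 among others, lay at 2.30, 1.05 and 0.67, 2.38-fold lower at Tm, with a change of -1.63 at Tl. Of the related ligands, which stayed under the threshold, Ccl3 changed by 0.39 and 0.52, and Ccl4 by -0.35 and -0.83. Ccr1, shared by Ccl3 and Ccl5, lay at -3.36, -3.34 and -1.92, with a change of 0.02 at Tm and 2.71-fold higher at Tl. With normexp the Ccr1 change at Tl was 0.56, under 2-fold.

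Ccl6 and Ccl9, CC ligands of myeloid cells, stayed under 2-fold, with changes of 0.76 and 0.28 at Tm and 0.29 and -0.43 at Tl. A ligand and the receptor of eosinophils were higher at Tl. Ccl11 (eotaxin) lay at -3.58, -3.07 and -1.82 and was 3.38-fold higher at Tl. Ccr3, its receptor on eosinophils, lay at -0.97, -1.02 and 0.16 and was 2.19-fold higher at Tl. Both fell under 2-fold at Tl with normexp, at 0.51 and 0.95. Ccl24, a further Ccr3 ligand, changed by 0.21 and 0.29, and Ccl26 was dim throughout. Of the 12 CC ligands of inflammatory cells, 11 had a value. Of these, 0 were higher and 3 lower at Tm, beside 29.2% and 16.9% of all genes. At Tl 1 was higher and 5 lower, beside 22.3% and 21.2% of all genes. Their medians were -0.35 and -0.83, beside 0.22 and 0.15 for all genes.

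**Figure D2:**
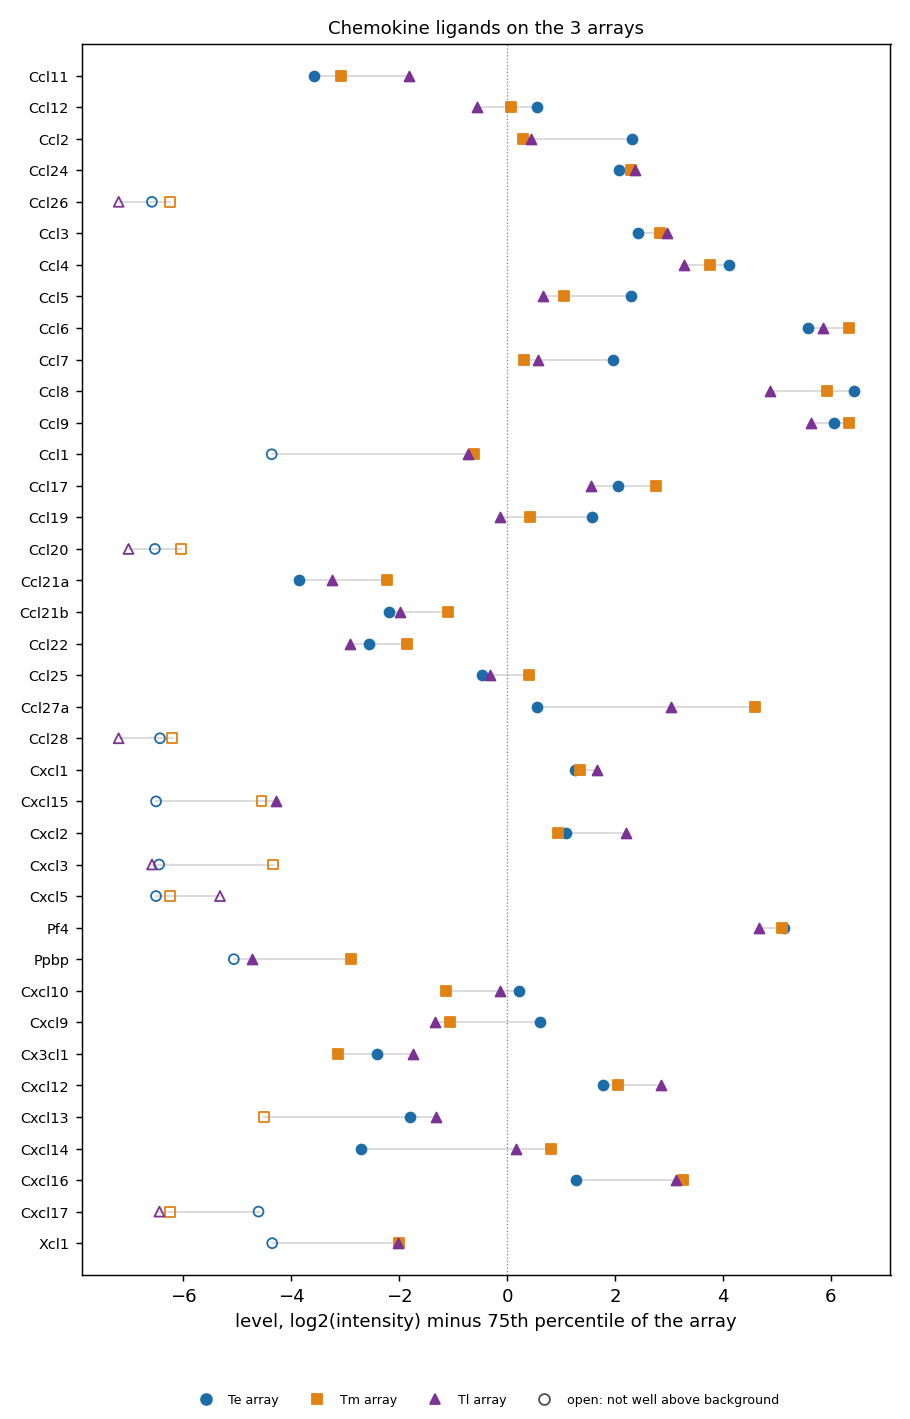
Level of each of the 38 ligands on the Te, Tm and Tl arrays, as log2 intensity minus the array's 75th percentile, with open symbols where the probe was not well above background; the 1 array per stage leaves no error bar. Ccl2, Ccl7 and Cxcl9 lie to the right at Te, and Ccl27a, Cxcl14 and Cxcl16 lie to the right on both later arrays.

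Cxcl9 and Cxcr3 were lower on both later arrays and Cxcl10 at Tm. Cxcl9, which draws Cxcr3-bearing T cells, lay at 0.61, -1.06 and -1.33, 3.18-fold lower at Tm and 3.84-fold lower at Tl. A further Cxcl9 probe changed by -2.13 and -0.96. Cxcl10, of the same function, lay at 0.23, -1.12 and -0.12. It was 2.55-fold lower at Tm and changed by -0.35 at Tl, a direction that scaling to the array median turned (0.17). Its promoter, unlike that of Cxcl9, held the ISRE core and the NF-kB consensus in the window searched. Cxcr3 lay at -0.04 at Te and at -1.41 on both later arrays, 2.58-fold and 2.59-fold lower.

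The ligands of naive T cells and dendritic cells gave no common direction. Ccl19, which guides dendritic cells and naive T cells through Ccr7, lay at 1.58, 0.43 and -0.12, 2.21-fold and 3.25-fold lower. Its other probes gave -1.34 and -0.95 at Tm and -1.91 and -1.90 at Tl. Ccr7, the receptor of migrating dendritic cells, lay at -1.24, -1.02 and -2.93, a change of 0.22 at Tm and 3.24-fold lower at Tl. Ccl21a and Ccl21b, the other Ccr7 ligands, were 3.07-fold and 2.15-fold higher at Tm and changed by 0.61 and 0.22 at Tl. With normexp they changed by 0.56 and 0.71 at Tm, under 2-fold, and by -0.25 and -0.14 at Tl. The Ccl21 genes are nearly identical copies, so their probes may report each other. Of the 8 markers of Langerhans and dendritic cells on the array other than Ccr7 and Xcr1, 3 were higher and 2 lower at Tm. At Tl 3 were higher and 3 lower. With both included, the summed level in units of the 75th percentile was 56.8, 168 and 102 on the Te, Tm and Tl arrays. Cd207, the langerin gene that defines Langerhans cells, changed by 2.99 and 2.13, while Fscn1, of mature dendritic cells, changed by -1.52 and -2.04. Their part in the Ccl19 and Ccr7 values was not tested.

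Ccl17 and Ccl22, dendritic and macrophage ligands of Ccr4, stayed under 2-fold, with changes of 0.72 and 0.71 at Tm and of -0.50 and -0.35 at Tl. Ccr4, a receptor of skin-homing T cells, was not well above background at Te and lay at -3.25 and -3.90. It was at least 2.37-fold higher at Tm and at least 1.52-fold higher at Tl. Ccl25 changed by 0.87 and 0.14. Its receptor Ccr9 lay at -2.17, -1.52 and -4.34, with a change of 0.65 at Tm and 4.51-fold lower at Tl. Ccr6, which is carried by Langerhans cell precursors and some T cells, changed by 0.52 and 0.36, and its ligand Ccl20 was among the undetected members.

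Among measured changes by the brightest probe, Ccl27a and Cxcl14, ligands that the epidermis makes, rose most from Te on both later arrays. Ccl1 rose by bounds of 3.76 and 3.63. Ccl27a, the keratinocyte ligand that draws T cells through Ccr10, lay at 0.56, 4.59 and 3.03. It was 16.4-fold higher at Tm and 5.55-fold higher at Tl. A further probe gave 4.15 and 2.65, but the remaining pair of Ccl27a probes gave 1.46 and 0.38 at Tm and -0.29 and -0.37 at Tl. These 4 probes name 3 transcripts, and the gene has a close copy, Ccl27b, so the probes may not report the same RNA. Ccr10 was lower, at -1.57, -2.49 and -2.73, with a change of -0.91 at Tm and 2.23-fold lower at Tl.

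Cxcl14, made constitutively by epidermis, lay at -2.71, 0.82 and 0.17, 11.6-fold and 7.36-fold higher. Of 15 keratinocyte markers, 12 were higher at Tm and 10 at Tl, with 0 lower and medians of 3.29 and 2.88. Their summed level was 284, 423 and 280, most of it from Trp63. Without Trp63 it was 22.5, 160 and 117. All 15 were well above background on every array, and Krt5, of basal keratinocytes, changed by 3.97 and 3.32. Itga6 changed by 0.01 and 0.06, Trp63 by 0.01 and -0.68, and Ivl by -0.77 and -0.07. The part of the keratinocyte markers in the Ccl27a and Cxcl14 values was not tested.

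Cxcl16, a membrane-bound ligand that also acts as a scavenger receptor and is made by macrophages and dendritic cells, lay at 1.28, 3.27 and 3.13, 3.97-fold and 3.61-fold higher. Its receptor Cxcr6, of tissue-resident T cells, lay at 0.07, -0.93 and -0.44, with a fall just short of the threshold at Tm and a change of -0.51 at Tl. A further Cxcr6 probe changed by -1.16, past the threshold, and by -0.73. Xcl1, which T cells and natural killer cells make to draw cross-presenting dendritic cells, was not well above background at Te. It lay at -2.01 on both later arrays, at least 5.07-fold and at least 5.05-fold higher. With normexp Xcl1 rose by 0.91 and 0.74, under 2-fold. Its receptor Xcr1 changed by -0.03 and -0.91. Of 9 T cell markers on the array, 4 were higher and 0 lower at Tm and 4 were higher and 0 lower at Tl, and summed they reached 8.38, 17.5 and 12.3 over the Te, Tm and Tl arrays. Their median changes were 0.71 and 0.83. Of the defining T cell genes Cd3e changed by 4.20 and 3.08, Cd3d by 0.71 and -0.17, and Lck by -0.78 and -0.69. Their part in the Xcl1, Ccl1 and Ccr4 values was not tested.

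Among the neutrophil ligands Cxcl2 was higher at Tl, and their receptor Cxcr2 was higher on both later arrays. Cxcl1 lay at 1.25, 1.35 and 1.67, with changes of 0.10 and 0.41. Cxcl2 lay at 1.09, 0.94 and 2.21, with a change of -0.15 at Tm and 2.17-fold higher at Tl. Cxcl3, whose promoter window shares their NF-kB match, and Cxcl5 were undetected. Cxcl15 was well above background only at Tl, with a bound of 0.21. Cxcr2, the receptor of these ligands on neutrophils and other myeloid cells, lay at 0.10, 2.25 and 1.44, 4.45-fold and 2.53-fold higher, while Cxcr1 was undetected. Of the 8 neutrophil markers on the array other than Cxcr2, 1 was higher and 0 lower at Tm, and 1 was higher and 1 lower at Tl. The summed level of the 9 with Cxcr2 was 88.2, 72.0 and 55.5, most of it from Csf3r, which changed by -0.67 and -0.96. Retnlg changed by 1.71 and 1.16, and 6 of 9 were well above background on each array. S100a8 changed by 0.66 and 0.65, and Elane was undetected.

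The platelet ligands differed. Pf4, also made by macrophages, lay at 5.14, 5.09 and 4.68 and changed by -0.05 and -0.46. Ppbp was not well above background at Te and lay at -2.90 at Tm and -4.72 at Tl. It was at least 3.04-fold higher at Tm, and no fold could be given at Tl.

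Among ligands of tissue positioning, Cxcl12, a stromal ligand of Cxcr4 that holds leukocytes in place, lay at 1.77, 2.06 and 2.85, with a change of 0.29 at Tm and 2.11-fold higher at Tl. A further Cxcl12 probe changed by -1.03 and 0.58. Cxcr4, its signalling receptor, lay at 5.77, 5.05 and 4.84, with changes of -0.73 and -0.93. Ackr3, the atypical receptor that takes up Cxcl12, was not well above background at Te and lay at -2.63 and -3.37, at least 3.66-fold and at least 2.18-fold higher. Cxcl13, the B cell ligand that macrophages and stroma make, lay at -1.81 at Te and -1.32 at Tl and was not well above background at Tm, at least 4.72-fold lower there and 0.48 higher at Tl. Cxcr5, its receptor, lay at -3.47 at Te and was not well above background later, at least 1.49-fold lower at Tm, with a bound of -1.63 on the log2 scale at Tl.

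Cx3cr1, the fractalkine receptor of monocytes and resident macrophages, lay at 1.75, 2.03 and 2.75, with changes of 0.27 and 0.99. A further Cx3cr1 probe changed by 0.16 and, past the threshold, by 1.86. Its ligand Cx3cl1 lay at -2.41, -3.13 and -1.75, with changes of -0.73 and 0.66. Cx3cl1 was under the threshold on both arrays, and Cx3cr1 was so by its brighter probe.

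**Figure D3:**
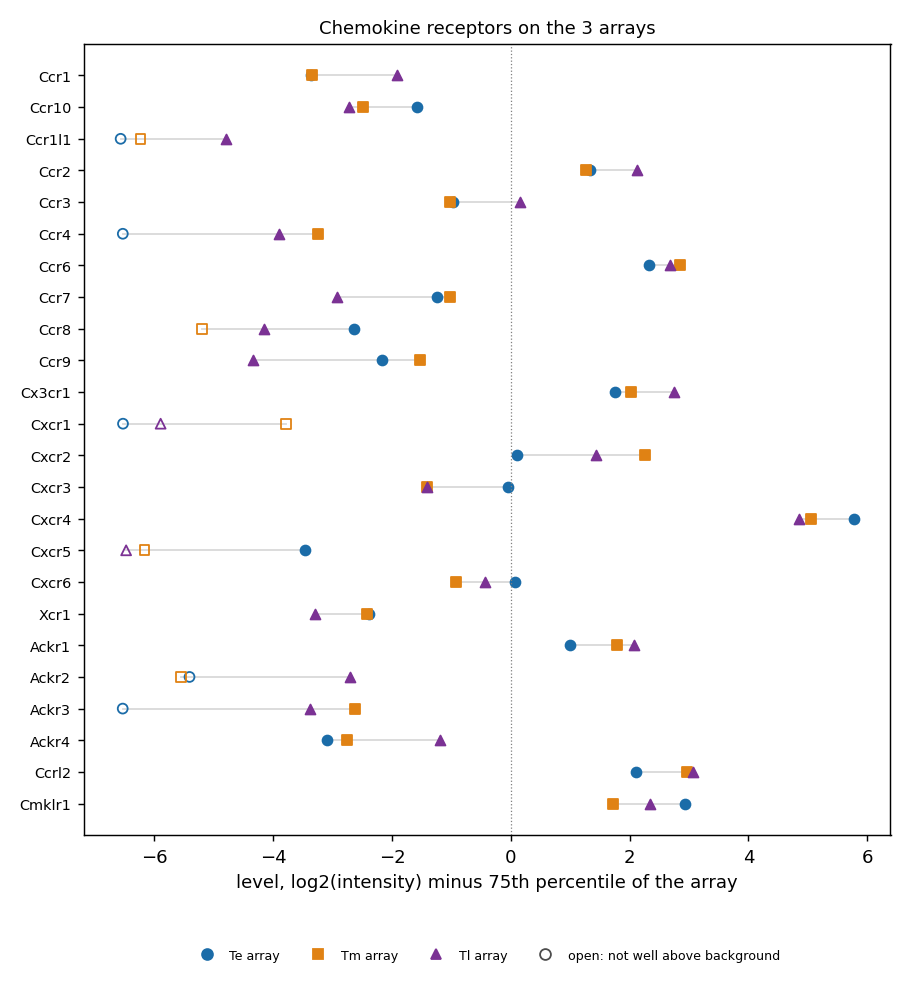
Level of 24 of the 25 receptors on the Te, Tm and Tl arrays, as log2 intensity minus the array's 75th percentile, with open symbols where the probe was not well above background; the 1 array per stage leaves no error bar. Cxcr3 lies to the right at Te, while Cxcr2 lies to the right on both later arrays.

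Of the 6 atypical and related receptors, 5 had a value at Tm, with 1 higher and 1 lower, beside 29.2% and 16.9% of all genes. At Tl 4 of 6 were higher and 0 lower, beside 22.3% and 21.2% of all genes. Over the other scalings the higher count at Tl ran from 2 to 5. It was 5 with scaling to the median and without scaling, beside 38.7% and 60.2% of all genes. It was 2 with the 75th percentile over probes well above background on all 3 arrays and with normexp, beside 16.8% and 15.8%. Ackr2 and Ackr3 were bounds at Tl, and both were under 2-fold with normexp. Ackr1, of venules, lay at 0.99, 1.79 and 2.08, with a change of 0.79 at Tm and 2.12-fold higher at Tl. Ackr4, which takes up Ccl19, Ccl21 and Ccl25, lay at -3.10, -2.76 and -1.19 and was 3.74-fold higher at Tl. Ackr2, the scavenger of inflammatory CC ligands, was well above background only at Tl, where it was at least 3.45-fold higher than at Te. A further Ackr2 probe gave a bound of 0.58. Ccrl2, which presents chemerin to other cells, changed by 0.87 and 0.96. Cmklr1, the chemerin receptor of macrophages, lay at 2.93, 1.72 and 2.34, 2.31-fold lower at Tm with a change of -0.59 at Tl. Of 8 endothelial markers, 0 were higher and 3 lower at Tm and 2 higher and 1 lower at Tl, with summed levels of 21.8, 12.9 and 20.1. Their part in the Ackr1 value was not tested.

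The remaining receptor, Ccr1l1, a copy of Ccr1, was well above background only at Tl (-4.79) and gave no fold. Of the 11 CC receptors, 10 had a value. Of these, 1 was higher and 2 lower at Tm, and 2 were higher and 5 lower at Tl. Of the 8 CXC, CX3C and XC receptors, 7 had a value. Of these, 1 was higher and 1 lower at Tm, and 1 was higher and 2 lower at Tl. Over all genes, 29.2% were higher and 16.9% lower at Tm, and 22.3% and 21.2% at Tl.

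Many of these genes lie in clusters of close copies, and neighbours did not all share a direction. In the chromosome 11 cluster of 6, Ccl2, Ccl7, Ccl12 and Ccl8 had changes below 0 on both later arrays, except that scaling to the array median put Ccl12 at 0.081 and Ccl8 at 0.059 at Tm. Ccl11, which lies between Ccl7 and Ccl12, and Ccl1, at the end of the row, had changes above 0. In the other chromosome 11 cluster, Ccl5 was lower while Ccl9, Ccl6, Ccl3 and Ccl4 stayed under 2-fold. On chromosome 9, Ccr9 was lower at Tl, Ccr1 and Ccr3 were higher at Tl, and Xcr1 and Ccr2 stayed under 2-fold. On chromosome 5, Ppbp was higher at Tm by its bound and Cxcl2 was higher at Tl, while Pf4 and Cxcl1 stayed under 2-fold. On chromosome 8, Ccl22, Cx3cl1 and Ccl17 all stayed under 2-fold.

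**Figure D4:**
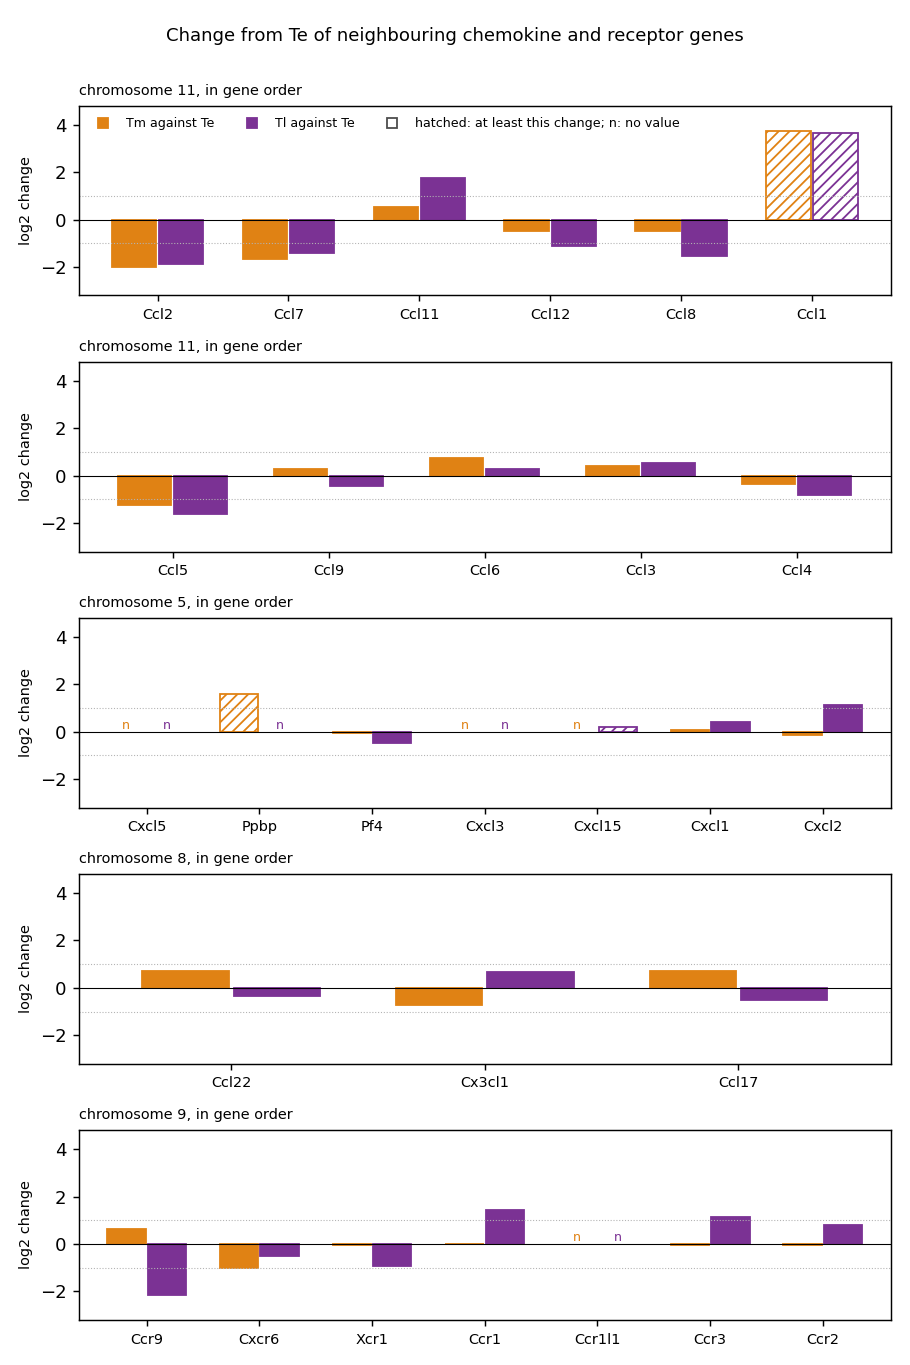
Log2 change from Te at Tm and Tl of members that neighbour each other, in gene order along 5 clusters, with hatched bars for bounds, n where no value could be given and dotted lines at 2-fold. In the top panel Ccl2, Ccl7, Ccl12 and Ccl8 point down and Ccl11 and Ccl1 point up.

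Between the 2 later arrays, 10 members were at least 2-fold higher and 8 lower at Tl than at Tm, of 52 with a value, beside 7.88% and 11.3% of 14862 genes. The direction turns if the arrays are exchanged. The counts moved with the scaling, to 20 higher and 2 lower of 55 without any, beside 35.9% and 1.93% of all genes. As Tl minus Tm on the log2 scale, Ccr9 differed by -2.82, Ccr7 by -1.91, Ccl27a by -1.56, Ackr4 by 1.56 and Cxcl13 by a bound of 2.72. At 10-fold, 0 members were higher and 0 lower, beside 0.0807% and 0.222% of all genes. The repeated spots gave an error of 0.161 for such a difference.

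Genes that act downstream of the receptors, 39 of a list of 41 on the array, were more often higher than lower at Tm: 16 were higher and 2 lower, beside 29.2% and 16.9% of all genes, with a median of 0.77 beside 0.22. At Tl, 8 (20.5%) were higher and 2 lower, beside 22.3% and 21.2% of all genes, with a median of 0.20 beside 0.15. With the 75th percentile taken over probes well above background on all 3 arrays, 7 were higher and 4 lower at Tm (median 0.40), beside 19.4% and 25.7% of all genes. Gnai1, a Gi alpha subunit, was not well above background at Te and rose by a bound of 3.21 and 4.27. Gnai3 changed by 0.77 and 1.39, and Gnai2 by 0.89 and -0.15. The regulators that stop Gi signalling included Rgs1 (1.90 and 1.90), Rgs18 (1.85 and 1.69), Rgs19 (1.78 and 1.18), Rgs10 (1.37 and 0.93) and Rgs14 (1.34 and 1.14). Rgs2 changed by 0.68 and 0.25, and Rgs16 by -0.95 and -0.13. Arrb2, a beta-arrestin that turns receptors off, was lower on both arrays, by -1.32 and -1.44, while Arrb1 changed by 0.77 and 0.26. Itgal, an integrin of leukocyte adhesion, changed by -0.54 and -1.59. The actin regulators Rac1, Rac2, Cdc42 and Rhoa all stayed under 2-fold.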

How the data were processed

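RNA of sorted macrophages was hybridised to 1-colour Agilent mouse arrays, 1 array per stage. The deposited scanner files hold background-subtracted intensity values made by the authors with Feature Extraction 10.7.3.1. The authors' value table holds log2 values of the same arrays, with each probe's median over the arrays at 0. It was used only as an alternative, under its own column names.

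Spots flagged as outliers were left out (162 to 281 per array), spots of a probe were averaged on the log2 scale, and the 75th percentile of each array was subtracted. A probe counted as well above background where at least a share of 0.5 of its spots were flagged so. Probes were named through the RefSeq transcript they list (26056 of 55681 had a symbol), and a gene was read from the probe with the highest mean. Genes given full values were members at least 2-fold from Te and the members of ligand and receptor pairs. The study's methods used a threshold of 10-fold. No test was possible with 1 array per stage. The procedure was tested on simulated data. Alternatives were 4 scalings, normexp (limma 3.58.1, R 4.3.3, offset 50), 2 filters, keeping the outlier spots, reading a gene as the median of its probes, the 10-fold threshold and the authors' table; exchanging the Tm and Tl arrays was added after seeing the data. Members, gene lists and comparisons were chosen with earlier results of these data known. Python 3.11.15, numpy 2.4.6 and pandas 2.3.3 were used. Protein sequences were not used here. The values of 1 receptor are not reported here by name; the counts and medians include it.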

Additional observations from a re-analysis of the deposited data

How the results depend on the processing

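No paired analysis was possible because each stage had 1 array. Of 51 changes of at least 2-fold from Te, 39 had a value under the filter on both arrays, 49 with the arrays exchanged and all under the others; where there was a value, the direction held except for those given next. Without scaling, Ccl12 and Ccr10 stood at 0.058 and 0.0074 at Tl. With the arrays exchanged, Cxcl13 stood at 0.48 at Tm, and at Tl Ccr3 stood at -0.050, Ccr7 at 0.22, Ccr9 at 0.65 and Cxcl2 at -0.15; in the authors' table, whose columns are the exchanged ones, these were 0.49, -0.046, 0.22, 0.65 and -0.15, and Ackr2 at Tl was -0.14.

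Scaling to the 75th percentile of probes detected on all arrays gave member medians of -0.16 (Tm), 0.045 (Tl) and 0.032 (Tl against Tm). In the last of these 5 were lower, beside 7.48% of all genes. Scaling to the median gave 20 higher and 5 lower at Tm (median 0.77) and 23 and 8 at Tl (median 0.74). Beside these stood 46.1% and 7.87% of all genes at Tm, and 38.7% and 10.6% at Tl. Quantile normalization gave a median of -0.049 at Tm. For Tl against Tm it gave a median of 0.18 and 5 lower, beside 7.88% of all genes. No scaling gave medians of 0.47 at Tm, 1.38 at Tl (30 higher, 1 lower) and 0.75 for Tl against Tm (20 higher, 2 lower). The shares of all genes were then 60.2% and 3.80% at Tl, and 35.9% and 1.93% for Tl against Tm. Normexp gave 5 higher at Tm (median 0.028), a median of -0.095 at Tl and 3 higher for Tl against Tm. Of all genes, 22.4% were then higher at Tm and 3.28% for Tl against Tm. Requiring both arrays well above background gave 6 of 45 higher at Tm, beside 31.1% of all genes. A 10-fold threshold left 3 higher and 0 lower at Tm, 1 and 0 at Tl, and 0 and 0 between Tm and Tl. The authors' table gave 19 of 45 higher at Tm (median 0.49), beside 32.1% of all genes. It gave a median of 0.14 for Tl against Tm, which the exchanged arrays gave as 0.15. The median of all genes ran from -0.16 to 0.86 at Tm and from -0.08 to 1.31 at Tl over the alternatives. Signal limited the 18 members not well above background on every array. For these, a change that involves an array where they were dim is a bound or has no value.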
